A study of Mus musculus with 3 samples.

Results

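The genes described here encode the replication-dependent histones of the mouse. They were taken as the protein-coding genes on chromosomes 1 to 19 of the GENCODE M21 annotation (mm10) whose names start with Hist1h, Hist2h, Hist3h or Hist4h, which gave 67 of 20807 protein-coding genes. Setd1a is a catalytic subunit of a complex that methylates lysine 4 of histone H3, and its binding was mapped by CUT&RUN, in which a nuclease tethered to an antibody releases the chromatin fragments that the antibody marks. The data were 1 list of 6969 peaks that the authors made from 2 Setd1a libraries. One further library of the series was made with rabbit IgG and is not analysed here. All libraries came from cultured neural stem cells (NSCs) that carry the genotype label WT. The cultures were started from the dentate gyrus of Hopx-CreERT2::Setd1afl/fl::H2B-GFP mice aged 7 to 8 weeks, so the cells bore the floxed Setd1a alleles, a Cre driver at Hopx and the H2B-GFP reporter. Quiescence was induced without EGF by BMP4 together with FGF2, both at 20 ng/ml, and the cells were taken on day 5. In the paper's culture scheme, lentivirus carrying Cre-GFP or GFP alone was added before day 5. The paper calls cells given GFP alone WT when it compares gene expression. Whether the cells used here received that virus is not stated outright. A list of intervals holds no transcript levels, so the cell type label could not be checked against markers.

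Replication-dependent histone genes are short, mostly without introns, and lie in clusters. Their mRNAs end in a stem-loop in place of a poly(A) tail, and their expression rises when DNA is replicated, so that new nucleosomes can be built from H2A, H2B, H3 and H4. Linker histone H1 binds the DNA between nucleosomes. Many H2A and H2B genes stand head to head and share the stretch between their starts, where CCAAT boxes and octamer elements are found. H4 genes carry a separate element that binds the factor Hinfp. The family is known for near-identical copies, and a read from such a copy cannot be given to 1 gene.

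A gene was counted as having a peak when an interval of the list lay within 1000 bp of one of its transcription start sites (TSSs). Of the 67 histone genes, 25 (37.3%) had a peak by this definition, beside 22.5% of all protein-coding genes on the same chromosomes. A peak overlapped the TSS itself of 15 histone genes (22.4%), beside 17.2% of all protein-coding genes. The list joins both replicates and gives no height per peak, and neighbouring histone genes share peaks, so no spread between replicates and no test is available for these counts. They are given as descriptions, and a gene without a peak is only a gene at which the list has no interval.

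Head-to-head H2A and H2B genes share the stretch between their starts, and it was this stretch that peaks covered in part of the pairs. It is shown for 5 pairs, read from the plus strand of GRCm38, with the CCAAT box, the TATA box TATAAA and the octamer ATTTGCAT in capitals wherever they stand on either strand. A peak covered the whole stretch in the first and the second pair, a peak lay beside it in the third, and the last pair and the one before it had no peak within 1000 bp.
Hist1h2ag and Hist1h2bj, chr13:22042945-22043213: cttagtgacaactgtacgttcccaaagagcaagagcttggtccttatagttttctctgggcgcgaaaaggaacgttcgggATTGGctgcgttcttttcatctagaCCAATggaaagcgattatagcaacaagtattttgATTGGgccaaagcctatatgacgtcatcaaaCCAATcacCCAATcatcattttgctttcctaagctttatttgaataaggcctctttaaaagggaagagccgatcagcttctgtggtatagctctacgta
Hist1h2ac and Hist1h2bc, chr13:23683949-23684198: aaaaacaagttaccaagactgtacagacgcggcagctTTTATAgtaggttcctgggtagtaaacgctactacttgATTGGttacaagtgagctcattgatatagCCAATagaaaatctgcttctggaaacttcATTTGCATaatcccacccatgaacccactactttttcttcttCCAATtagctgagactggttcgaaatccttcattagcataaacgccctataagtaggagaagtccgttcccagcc
Hist1h2ae and Hist1h2bg, chr13:23571221-23571395: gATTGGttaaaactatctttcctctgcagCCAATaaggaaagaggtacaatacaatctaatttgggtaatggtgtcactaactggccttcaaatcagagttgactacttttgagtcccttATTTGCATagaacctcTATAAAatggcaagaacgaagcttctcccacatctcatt
Hist1h2bf and Hist1h2ad, chr13:23574197-23574380: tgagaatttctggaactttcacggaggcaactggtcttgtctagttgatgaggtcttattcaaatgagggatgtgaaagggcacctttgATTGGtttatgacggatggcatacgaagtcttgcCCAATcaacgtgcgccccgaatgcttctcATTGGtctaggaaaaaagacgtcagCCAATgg
Hist2h2ac and Hist2h2be, chr3:96220881-96221118: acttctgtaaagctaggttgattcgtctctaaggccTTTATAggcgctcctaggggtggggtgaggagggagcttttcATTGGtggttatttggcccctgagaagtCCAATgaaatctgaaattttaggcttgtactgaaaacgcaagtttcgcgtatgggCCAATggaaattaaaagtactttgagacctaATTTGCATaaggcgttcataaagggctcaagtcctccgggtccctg
All 5 stretches held CCAAT boxes on both strands, whether or not a peak was present. TATAAA and the octamer ATTTGCAT were both found at Hist1h2ac and Hist1h2bc, at Hist1h2ae and Hist1h2bg, and at Hist2h2ac and Hist2h2be, and neither at the other pairs shown. The motifs did not always go together in H2A and H2B pairs not shown. Hist1h2ak with Hist1h2bn and Hist1h2an with Hist1h2bp held TATAAA without the octamer. Hist1h2ah with Hist1h2bk and Hist1h2ba with Hist1h2aa held both. In pairwise global alignments the 5 stretches were 44.7 to 56.2% identical to each other. As read from the plus strand, the H2B gene lies on the left at Hist1h2bf and Hist1h2ad and the H2A gene at the rest. Both the lowest and the highest value come from alignments with that pair. No value for unrelated sequence is given, so the range is not a measure of promoter similarity.

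For H4 genes the 120 bases before the TSS are shown on the coding strand, for 3 genes with a peak over the TSS (Hist1h4b, Hist1h4d, Hist1h4a) and 3 without a peak (Hist2h4, Hist1h4m, Hist1h4n). Capitals mark the CCAAT box or the TATA box on either strand and GGTCCG, a motif that was added after the H4 promoters had been read.
Hist1h4b, chr13:23756893-23757012: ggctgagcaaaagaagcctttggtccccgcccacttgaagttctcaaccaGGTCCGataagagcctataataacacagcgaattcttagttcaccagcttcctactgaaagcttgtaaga
Hist1h4d, chr13:23581478-23581597: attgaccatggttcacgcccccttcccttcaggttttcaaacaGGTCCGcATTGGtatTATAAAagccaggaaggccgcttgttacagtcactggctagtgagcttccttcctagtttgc
Hist1h4a, chr13:23761231-23761350: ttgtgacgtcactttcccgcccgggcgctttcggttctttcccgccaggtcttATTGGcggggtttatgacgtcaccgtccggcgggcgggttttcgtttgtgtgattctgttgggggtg
Hist2h4, chr3:96263312-96263431: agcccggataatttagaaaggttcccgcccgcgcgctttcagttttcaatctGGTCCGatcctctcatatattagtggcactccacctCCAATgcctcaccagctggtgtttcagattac
Hist1h4m, chr13:21811626-21811745: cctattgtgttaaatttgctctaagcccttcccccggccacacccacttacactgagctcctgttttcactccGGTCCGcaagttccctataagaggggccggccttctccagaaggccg
Hist1h4n, chr13:21832197-21832316: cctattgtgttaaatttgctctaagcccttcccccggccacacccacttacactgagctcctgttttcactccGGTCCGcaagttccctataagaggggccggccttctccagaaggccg
GGTCCG stood within these 120 bases in each gene shown except Hist1h4a, which has a peak over its TSS. The stretches of Hist1h4m and Hist1h4n are identical in all 120 bases, and neither gene had a peak. None of the 36-base windows in the 500 bp before either TSS occurs only once in the genome. The authors kept only uniquely mapped reads, so the lack of a peak at these genes cannot be read as a lack of binding.

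The 25 genes with a peak were reached by 16 distinct peaks. Of these peaks, 6 reached 1 histone gene, 9 reached 2 and 1 reached 3. A TSS of 2 histone genes was overlapped by 3 of the peaks, a TSS of 1 gene by 9 and none by 4. When each peak was given only to the protein-coding gene whose TSS lay nearest its midpoint, 15 histone genes kept a peak. The share of all protein-coding genes under this rule is not given here. The count therefore has no background, and the contrast at 1000 bp cannot be carried over to it. In the plot of peaks around each TSS, the peaks that overlap the start and those that lie off to 1 side can be told apart gene by gene.

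**Figure D1:**
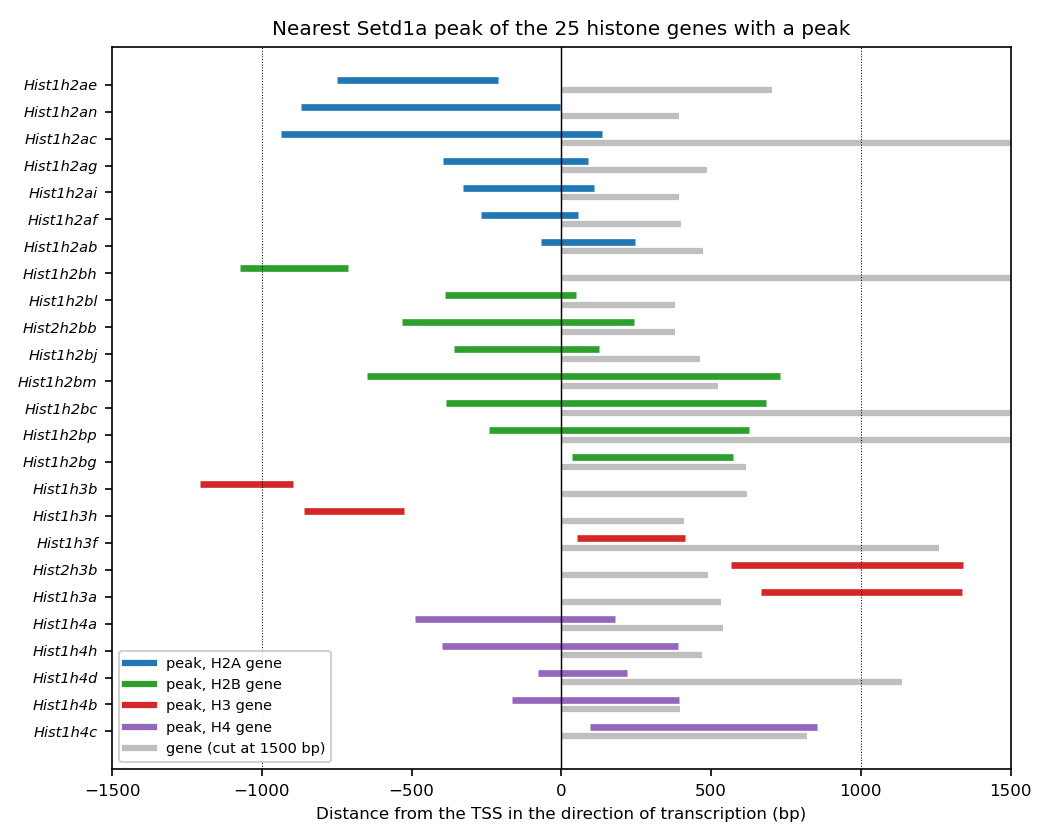
Nearest peak of each of the 25 histone genes with a peak, by distance from the TSS in bp with transcription running to the right; a coloured bar is the peak (colour gives the histone class), the grey bar under it is the gene, cut at the edge of the plot, and dotted lines mark 1000 bp. Coloured bars overlap the TSS of 15 genes, and the 10 other genes have their nearest peak edge 3 to 896 bp away.

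The 4 core histone classes had similar shares of genes with a peak, and they differed in where the peaks lay. Among genes of the H2A class, 7 of 18 (38.9%) had a peak, with 5 over the TSS. Of the 18 H2B genes, 8 (44.4%) had a peak, 6 of them over the TSS. H4 genes had a peak in 5 of 13 cases (38.5%), 4 of them over the TSS. H3 genes had a peak in 5 of 12 cases (41.7%), and in no case did it overlap the TSS. None of the 6 H1 genes had a peak within 1000 bp. By the nearest-gene count, H2B kept 6 genes, H4 kept 5, H2A kept 3 and H3 kept 1.

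**Figure D2:**
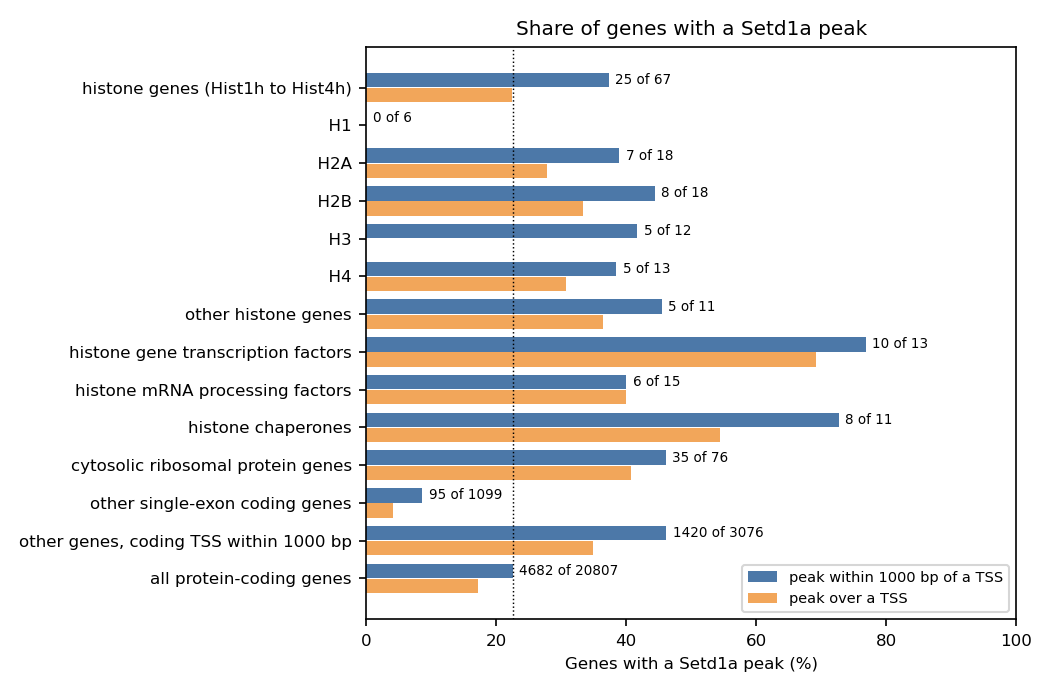
Percent of genes with a peak within 1000 bp of a TSS and with a peak over the TSS, for all 67 histone genes, for each histone class, for lists of other histone genes and histone factors and for reference gene classes, with the count of genes beside each bar and a dotted line at the share of all protein-coding genes; bars start at 0 and carry no error, since the list holds no replicate values. H1 stands at 0 in both measures and H3 at 0 for peaks over the TSS, while all histone genes stand at 37.3% beside 22.5% of all protein-coding genes.

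In 3 head-to-head pairs of H2A and H2B genes, a single peak overlapped both starts. A peak of 437 bp (chr13:21716094-21716530) overlapped the starts of both Hist1h2bl and Hist1h2ai, and ended 49 bp inside the former and 108 bp inside the latter. The annotated starts of both genes are their start codons, so their true TSSs may lie further upstream, inside the peak. Of the 67 histone genes, 13 have an annotated TSS at a start codon, and distances at them carry the same limit. Near this pair a second peak of 337 bp (chr13:21716799-21717135) overlapped no TSS and came within 524 bp of the H3 gene Hist1h3h. At Hist1h2ag and Hist1h2bj a peak of 486 bp (chr13:22042854-22043339) overlapped both starts and reached 90 and 125 bp into the genes. These narrow peaks were thus centred on the shared upstream stretch. The peak at Hist1h2ac and Hist1h2bc was 1071 bp wide (chr13:23683813-23684883), wider than 93.9% of all peaks in the list, and reached 135 bp into Hist1h2ac and 684 bp into Hist1h2bc.

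At 2 further H2A and H2B pairs the peak was placed to 1 side. The peak at Hist1h2an and Hist1h2bp (867 bp, chr13:21787221-21788087) began 3 bp before the start of Hist1h2an, covered 99.2% of the stretch between the starts and ran 626 bp past the TSS of Hist1h2bp. The annotated start of Hist1h2an is its start codon, so its true TSS may lie further upstream, inside the peak. At Hist1h2ae and Hist1h2bg the peak (538 bp, chr13:23571431-23571968) covered none of the stretch between the starts. It lay 35 to 572 bp downstream of the TSS of Hist1h2bg, wholly inside that gene, and 211 bp from the start of Hist1h2ae.

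Over all histone genes, 13 divergent pairs had starts within 1000 bp of each other, and 6 of them (46.2%) had a peak, which reached both genes in each case. H2A with H2B made up 12 of these pairs, with starts 176 to 306 bp apart (median 259.5 bp), and 5 of the 12 (41.7%) had a peak. Other protein-coding genes with another coding TSS within 1000 bp, counted by gene and in any orientation, had a similar share (1420 of 3076, 46.2%). The pairs without a peak were Hist1h2ak with Hist1h2bn, Hist1h2bq with Hist1h2ao, Hist1h2ap with Hist1h2br, Hist1h2ah with Hist1h2bk, Hist1h2bf with Hist1h2ad, Hist1h2ba with Hist1h2aa, and Hist2h2ac with Hist2h2be. The remaining pair, Hist1h2bh with the H3 gene Hist1h3f, had starts 660 bp apart and a peak of 362 bp (chr13:23544104-23544465) that began 52 bp inside Hist1h3f and 712 bp from the start of Hist1h2bh. Its GC content of 36.7% was the lowest among the 16 peaks. Of the 11 H2A and H2B genes in none of the 13 pairs, 4 had a peak.

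Among those unpaired genes, the widest of the 16 peaks (1381 bp, chr13:21721394-21722774) covered the whole of Hist1h2bm and was wider than 97.9% of the peaks in the list. Hist1h2af had a peak of 324 bp (chr13:23533638-23533961) that ended 55 bp past its TSS. At Hist1h2ab a peak of 313 bp (chr13:23751059-23751371) ran from -67 to 245 bp around the TSS, negative values being upstream. On chromosome 3 a peak of 777 bp (chr3:96269219-96269995) overlapped the start of Hist2h2bb and ended 243 bp inside it. The neighbouring H3 gene Hist2h3b was reached only because its start lay 565 bp from that peak. The H2A and H2B genes with a peak near but not over the TSS were the pair members Hist1h2an, Hist1h2ae, Hist1h2bg and Hist1h2bh.

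The H4 genes with a peak were reached by a peak each. At Hist1h4h the peak was 791 bp wide (chr13:23530650-23531440) and ran from -400 to 390 bp around the TSS. The peak at Hist1h4b (560 bp, chr13:23756847-23757406) covered 99.2% of the gene. Hist1h4d had the narrowest of the 16 peaks (299 bp, chr13:23581520-23581818), from -78 to 220 bp. At Hist1h4a a peak of 670 bp (chr13:23761050-23761719) lay mostly upstream, from -489 to 180 bp. The peak at Hist1h4c (760 bp, chr13:23697601-23698360) lay downstream of the start, from 94 to 853 bp, with 95.5% of its length inside the gene. H4 genes were therefore covered at the promoter, over the body or over both, depending on the gene.

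Of the 5 H3 genes with a peak, only Hist1h3f had one inside the gene record, from 52 to 413 bp past the TSS. It ended before the start codon of Hist1h3f, which lies 433 bp from the annotated TSS. Hist1h3h, Hist1h3a, Hist2h3b and Hist1h3b had their nearest peak edge 524, 667, 565 and 896 bp from the TSS, and in each case that peak lay at or next to a gene of the H2A, H2B or H4 class. Hist1h3b was the gene just inside the limit of 1000 bp, and the genes just outside it were Hist1h3g at 1461 bp and Hist1h4i at 1492 bp. The H3 count is thus the one that rests most on the width of the window.

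Without a peak were all H1 genes (Hist1h1a, Hist1h1b, Hist1h1c, Hist1h1d, Hist1h1e and Hist1h1t, the last a testis form), 11 H2A genes, 10 H2B genes, 7 H3 genes and 8 H4 genes. Besides the paired genes listed above, these were the H2A genes Hist2h2aa1, Hist2h2aa2, Hist2h2ab and Hist3h2a, the H2B genes Hist1h2bb, Hist1h2be and Hist3h2ba, the H3 genes Hist1h3c, Hist1h3d, Hist1h3e, Hist1h3g, Hist1h3i, Hist2h3c1 and Hist2h3c2, and the H4 genes Hist1h4f, Hist1h4i, Hist1h4j, Hist1h4k, Hist1h4m, Hist1h4n, Hist2h4 and Hist4h4. Their nearest peak lay 1461 to 172743 bp from the TSS, with a median of 17187 bp. The largest distances were those of Hist1h2ba and Hist1h2aa, which encode testis forms of H2B and H2A and lie at the end of their cluster. The annotated starts of Hist1h1d and Hist1h2be lie 1828 and 35138 bp from their start codons. A peak at the coding sequence of these genes would not have been counted by the TSS. The list held no peak within 1000 bp of either start codon.

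Grouping genes with gaps of at most 500 kb gave 5 locations. Chromosome 13 held a cluster of 23 genes (cluster A, chr13:21715763-22043676) and a cluster of 31 genes (cluster B, chr13:23531050-23934851), chromosome 3 a cluster of 10 genes (chr3:96219865-96270132), chromosome 11 2 genes and chromosome 6 the single gene Hist4h4. Genes with a peak numbered 8 in cluster A (34.8%), 15 in cluster B (48.4%) and 2 on chromosome 3 (20%), and there were none on chromosomes 11 and 6. The share over all protein-coding genes was 22.5%. Neighbouring histone genes that share a peak are each counted in these percents. Per Mb, there were 18.3 peaks in cluster A and 24.8 in cluster B beside 2.36 over all of chromosome 13. The chromosome 3 cluster had 19.9 from a single peak, beside 1.96 over that chromosome. These densities were not adjusted for the number of genes. Cluster A held 23 histone genes and 3 other protein-coding genes in 328 kb, and cluster B held 31 and 6 in 404 kb. All 10 peaks in cluster B and 5 of the 6 in cluster A lay within 1000 bp of a histone TSS. The sixth of cluster A lay over the start of Zfp184, a zinc finger gene. Of the 10 other protein-coding genes inside the cluster spans, Zfp184 was the only one with a peak.

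**Figure D3:**
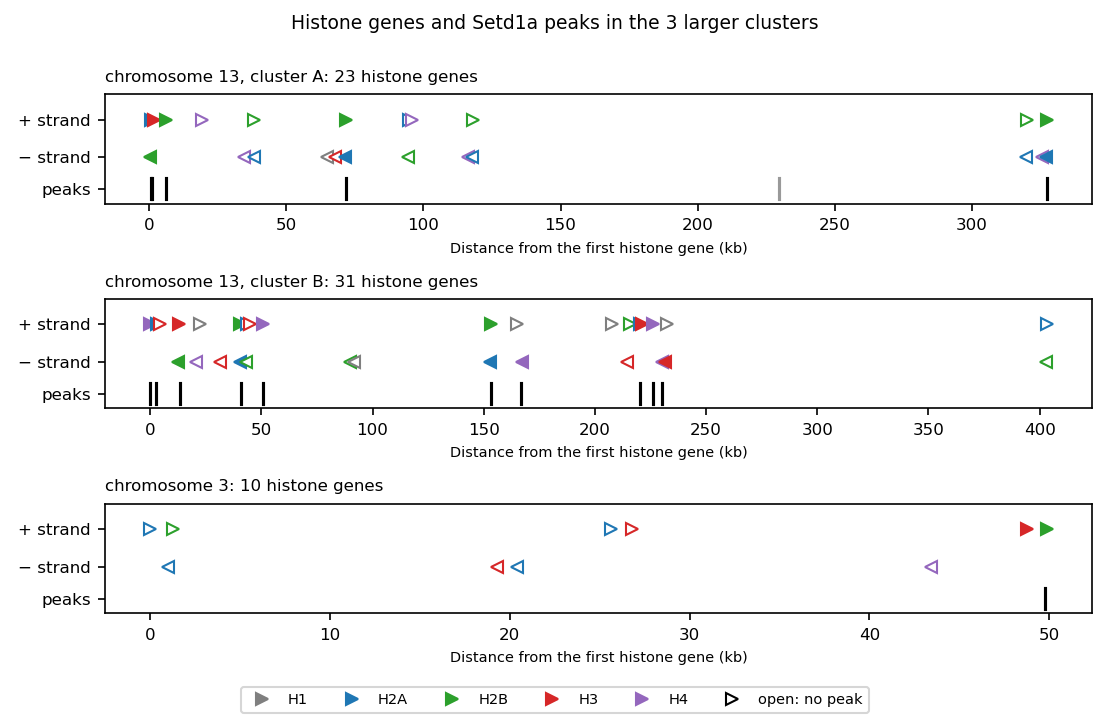
The histone genes along cluster A and cluster B of chromosome 13 and the cluster of chromosome 3, in kb from the start of each cluster, coloured by histone class, with open triangles for genes without a peak within 1000 bp of a TSS, triangles pointing in the direction of transcription, and ticks for peaks (grey for the 1 at Zfp184). Genes with a peak sit in groups separated by runs without one, the longest of 9 genes in cluster A and 8 genes on chromosome 3.

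Class and location crossed for H4. In cluster B, 5 of the 6 H4 genes had a peak and Hist1h4f did not, whereas none of the 5 H4 genes of cluster A had one. H2A had a peak at 3 of 7 genes in cluster A and 4 of 6 in cluster B, H2B at 4 of 8 and 3 of 7, and H3 at 1 of 2 and 3 of 7. The longest run without a peak held the 9 genes from Hist1h2bq to Hist1h4i in cluster A and spanned 235 kb, within which the list's only peak was the one at Zfp184. On chromosome 3 the 8 genes from Hist2h2ab to Hist2h4 had no peak over 43.4 kb, and in cluster A the 6 genes from Hist1h4j to Hist1h3i had none over 48.3 kb.

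The authors kept only uniquely mapped reads, so the share of sequence that occurs once in the genome was measured at each gene. For every window of 36 bases within 500 bp of the TSS, exact copies were counted on both strands of the genome. The median histone gene had 64.3% unique windows, and the median protein-coding gene 100%. The repeated sequence lay mainly in the genes themselves, as the median was 92.9% over the 500 bp before the TSS and 38.2% from the TSS on. Inside the 16 peaks the median was 73.4% (36.4 to 100%), against 100% inside all peaks within 1000 bp of a coding TSS. The lowest value belonged to the peak within Hist1h2bg.

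Genes with a peak had a median of 63.3% unique windows (lowest 42.9%) and genes without one 66.4% (lowest 0%). Before the TSS the medians were 99.8% with a peak and 84.9% without, and from the TSS on they were 34.3 and 49.1%. With windows of 75 bases the medians were 68.5% with a peak and 80.2% without. No test was made of these differences. Below 90% unique windows, 23 of 57 histone genes had a peak (40.4%), beside 237 of 3073 other protein-coding genes (7.71%). At 90% or more, 2 of 10 histone genes had a peak (20%), Hist1h3f and Hist2h2bb, beside 4420 of 17667 other genes (25%). Those 10 include Hist1h1d and Hist1h2be, whose start codons lie 1828 and 35138 bp from the annotated TSS, beyond the 500 bp measured. In Hist1h3f the start codon lies 433 bp from the TSS. At the low end, 8 genes had under 5% unique windows and none of them had a peak. These were Hist1h2bq, Hist1h2ao, Hist1h4m, Hist1h4n, Hist1h2ap, Hist1h2br, Hist2h3c1 and Hist2h3c2, of which 6 lie in the run of 9 genes in cluster A. Leaving out these 8, with the limit of 5% chosen after the values had been seen, gave 25 of 59 genes with a peak (42.4%).

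**Figure D4:**
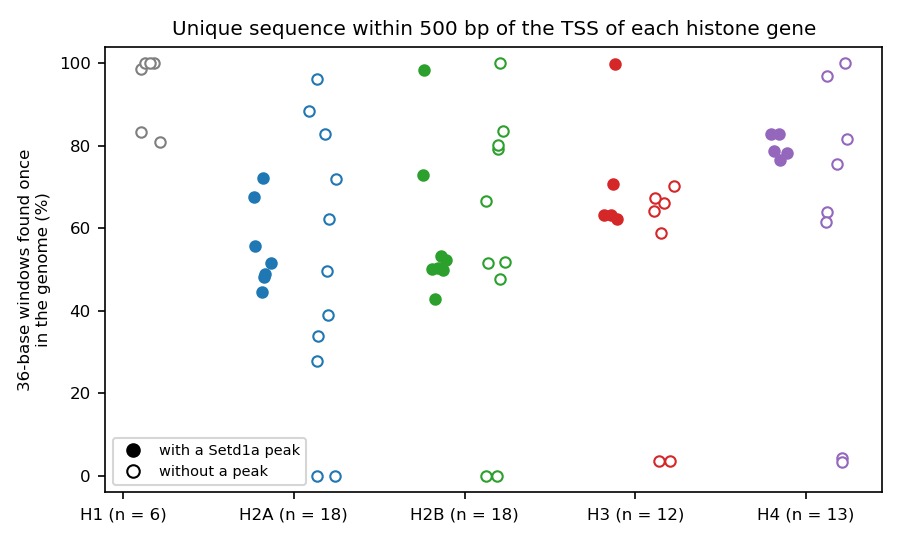
Percent of 36-base windows within 500 bp of the TSS that occur once in the genome, for each of the 67 histone genes by class, with genes that had a peak within 1000 bp marked apart from those without; 1 point is 1 gene. The 8 genes under 5% have no peak, the H1 genes all lie above 81% and have none either, and the genes with a peak all lie at 42.9% or above.

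The H1 genes had 81.1 to 100% unique windows and no peak, though the windows of Hist1h1d did not reach its start codon. Of the H4 genes of cluster A without a peak, Hist1h4m and Hist1h4n had no unique window before the TSS, Hist1h4j and Hist1h4k had 77.2 and 76.8%, and Hist1h4i had 99.4%. All 6 H4 genes of cluster B had 97.6% or more before the TSS, including Hist1h4f, which had no peak. Hist2h4 and Hist4h4 had 96.9 and 100% over the whole window and no peak. The part of read uniqueness in which genes carry a peak was not tested.

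In width the peaks at histone genes resembled other promoter peaks, at a median width of 549 bp and quartiles of 356 and 781 bp, beside 526, 365 and 761 bp for the 4270 peaks within 1000 bp of any coding TSS. Over the 15 genes with a peak on the TSS, the midpoint of the peak lay at a median of -106.5 bp from the start (range -400 to 193 bp, negative values being upstream), and the peak covered a median of 27.7% of the gene. The part of read uniqueness in these widths and positions was not tested. These genes are short, with a median length of 539 bp beside 17629 bp for all protein-coding genes, and 62 of the 67 have a single exon.

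The sequence under the peaks was poorer in G and C than at other promoters. The 16 peaks had a median GC content of 52.4% beside 63.5% in all promoter peaks, while the ratio of observed to expected CpG was 0.886 beside 0.814. The same held in the promoters, taken from 250 bases before to 50 after the TSS. Their median GC content was 45.3% over all histone genes, 44.0% with a peak and 47.2% without, beside 55.3% over all protein-coding genes and 61.7% over those with a peak. Histone promoters were thus low in GC with or without a peak, although promoters with a peak were richer in GC over the genome as a whole. The CpG ratio was 0.75 over all histone promoters, 0.744 with a peak and 0.754 without, beside 0.540 over all protein-coding promoters and 0.806 over those with a peak.

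Each motif was searched on both strands of the same 300 bases. CCAAT, bound by the factor NF-Y, was found at 56 of 67 histone promoters (83.6%) and at 38.6% of all protein-coding promoters. It was present at all 18 H2A and all 18 H2B genes, at 11 of 12 H3 genes and at 4 of 13 H4 genes. The TATA box TATAAA was found at 37 histone promoters (55.2%, all promoters 12.7%). The octamer ATTTGCAT, bound by Pou2f1, was found at 15 (22.4%, all promoters 1.59%), which were 7 H2A and 8 H2B genes. AAACACA, known from H1 promoters, was found at 9 (13.4%, all promoters 6.36%), 4 of them H1 genes. GGTCCG was found at 15 (22.4%, all promoters 9.71%), including 12 of the 13 H4 genes. No motif contains another. A match is a string of letters and does not show a bound site.

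The motifs were spread over genes with and without a peak. CCAAT was found in 22 of the 25 promoters with a peak and 34 of the 42 without, TATAAA in 11 and 26, ATTTGCAT in 7 and 8, AAACACA in 4 and 5, and GGTCCG in 6 and 9. In the 12 H2A and H2B pairs, the stretch between the starts held CCAAT in all 12, TATAAA in 3 of 5 pairs with a peak and 4 of 7 without, and the octamer in 2 of 5 and 3 of 7.

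Several gene classes that share a feature with the histone genes were counted in the same way. Of the other single-exon protein-coding genes, 95 of 1099 (8.64%) had a peak within 1000 bp. Among other protein-coding genes with the TSS of another coding gene within 1000 bp, 1420 of 3076 (46.2%) had one, beside 12 of 28 histone genes with such a neighbour (42.9%) and 13 of 39 without (33.3%). Genes of cytosolic ribosomal proteins, also a family of short genes, had a peak in 35 of 76 cases (46.1%). The share of histone genes with a peak was thus above that of single-exon genes and below that of closely spaced genes and ribosomal protein genes, as a description without a test.

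Histone genes outside the 4 name series, which mostly encode variants made throughout the cell cycle, had a peak in 5 of 11 cases (45.5%, all protein-coding genes 22.5%). Peaks overlapped the starts of H2afx, the variant phosphorylated at DNA breaks (906 bp wide), of H2afy, which encodes macroH2A (356 bp), and of H3f3a and H3f3b, which both encode H3.3 (709 and 756 bp). A peak lay 339 bp from the start of H1fx, a linker histone variant. At H2afy and H3f3b the TSS overlapped was that of another transcript, and the peak lay 676 and 3235 bp from the start of the gene record.

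Factors that act on histone genes and their products were counted from 3 lists, which, like the list of variants, were drawn up with earlier results of these data known. Of 13 genes for histone transcription, 10 (76.9%) had a peak, beside 22.5% of all protein-coding genes. Npat, the coactivator of histone genes downstream of cyclin E and Cdk2, had a peak of 742 bp over its TSS. Peaks over the TSS were also found at Casp8ap2 (428 bp), another protein of the histone locus body, at Hinfp (588 bp), and at the genes of all 3 NF-Y subunits, Nfya (979 bp), Nfyb (930 bp) and Nfyc (1159 bp, over the start of another transcript and 5487 bp from that of the gene record). Yy1 (667 bp), a zinc finger factor, and the cell cycle genes Ccne2 (775 bp) and E2f1 (554 bp) had one over the TSS as well, and Pou2f1, the octamer factor, had one at 261 bp.

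Of 15 genes on chromosomes 1 to 19 for the processing of histone mRNA, 6 (40%, all protein-coding genes 22.5%) had a peak, each over the TSS. They were Slbp, which binds the stem-loop (410 bp), Zfp473, a component of the U7 processing machinery (663 bp), Eri1, a nuclease that trims the stem-loop end (629 bp), and the Sm protein genes Snrpd3 (1230 bp), Snrpf (375 bp) and Snrpg (366 bp). The peaks of Zfp473, Eri1 and Snrpg overlapped starts of other transcripts, and lay 2007, 491 and 72 bp from the start of the gene record. Of 11 histone chaperone genes on these chromosomes, 8 (72.7%, all protein-coding genes 22.5%) had a peak. Asf1b (533 bp), Nasp (810 bp), Cabin1 (445 bp), Ubn1 (563 bp), Daxx (335 bp) and Nap1l4 (630 bp) had it over a TSS (for Nasp that of another transcript, 65 bp from the start of the gene record). Hira and Nap1l1 had it at 609 and 393 bp from the start of another transcript, and 984 and 451 bp from that of the gene record.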

How the data were processed

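CUT&RUN for Setd1a was done in 2 libraries and with IgG in 1. The authors deposited the peaks found in both Setd1a replicates as 1 list of chromosome, start and end, which gives positions in bp and no other measure (score, signal or count). The methods state unique mapping to mm10 and peak calling with default parameters. The submitters' processing notes name bcl2fastq 2.17.1.14, Trimmomatic 0.32, Bowtie2 2.1.0, SAMtools 0.1.18 and MACS2 2.2.8. Whether the IgG library served as control, whether starts count from 0 or 1 (a difference of 1 bp), the length of the mapped reads and the depth are not given in the sources used here. The methods name a sequencing kit of 75 cycles. Both columns of values were used and 0 were left unmatched.

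Peaks were set against the TSSs of GENCODE M21 transcripts with Python 3.11.15, numpy 2.4.6, pandas 2.3.3 and numba 0.67.0, and figures were drawn with matplotlib 3.10.9. Distances run from the nearer edge of a peak to the TSS, and are 0 where they overlap. Unique windows were counted without mismatches in GRCm38, with assembly patches left out. Divergent pairs have starts at most 1000 bp apart on opposite strands, heading away from each other. Stretches were aligned with Biopython 1.88. The scripts were first tested on simulated data. The members and gene lists were chosen with earlier results of these data known. By the rule for named genes, every histone gene is named once, those with a peak over the TSS, in a divergent pair with a peak or at the 5 widest or 5 narrowest peaks are given with values, and listed factors are named when they have a peak, with others counted. Of the 52 listed genes, 2 (Atrx and Cstf2) lie outside chromosomes 1 to 19 and were not counted.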

Additional observations from a re-analysis of the deposited data

How the results depend on the processing

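Of 57 values recomputed under another setting, 48 stayed within 1.5 times the reported value and 9 moved further. With only peaks that overlap a TSS, 15 histone genes had a peak in place of 25, and H3 fell from 5 genes to 0. With a window of 500 bp, H3 had 1 gene. With peaks of at least 500 bp, 14 genes and 9 of the 16 distinct peaks were left. With each peak given to the nearest coding TSS, 15 genes had a peak. For these 2 settings no share of all protein-coding genes is given beside the count. Among genes with at least 90% unique windows, 2 of 10 had one. With windows of 2000 and 3000 bp, H1 had 2 and 2 genes in place of 0 (Hist1h1t and Hist1h1a). The other counts of histone genes ranged from 20 to 31. These include the RefSeq 5′ ends (25), the start codon in place of the TSS (24) and genes with at least 5% unique windows (25 of 59), 3 alternatives chosen after seeing the data. The median share of unique windows was 64.3% for 36 bases and 76.4% for 75 bases. No paired analysis was possible because both replicates were deposited as 1 list, and for the same reason no replicate could be left out. The depth is unknown, and its part in which genes lack a peak was not tested.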
